A study of Homo sapiens with 6 samples.

Results

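The genes described here are 10 regulators and products of endometrial decidualization, chosen by name: the transcription factors FOXO1, FOXO3, HAND2, GATA2, GATA6, NR2F2, KLF9 and STAT3, and the secreted proteins IGFBP1 and LEFTY2. They were looked up among the 60660 genes counted by polyA RNA-sequencing in 12Z cells, an immortalized epithelial line from human endometriosis. The study asked what the loss of the long non-coding RNA LINC01133 does to the RNAs of these cells. Control cells (n = 3 libraries) received a non-targeting siRNA, and knockdown cells (n = 3) received siRNA LINC01133a at 10 nM. Both groups were transfected with the same lipid reagent and lysed 72 h later. All libraries came from this 1 cell line and the knockdown from 1 siRNA, so effects of losing LINC01133 and other effects of that siRNA cannot be told apart. No progestin or cAMP treatment, which is used to decidualize endometrial cells in culture, is named for either group.

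Decidualization is the change of the endometrial stroma into secretory cells under progesterone and cAMP, and its failure is one of the features studied in endometriosis. The progesterone receptor acts in it with HAND2, GATA2, NR2F2, KLF9 and STAT3, while FOXO1 accumulates in the nucleus when AKT signaling is low and switches on genes such as IGFBP1. Much of this is known from stromal cells, and 12Z cells are described as epithelial, so the values below are the levels of these genes in another cell type.

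Of the 10 genes, 8 had enough reads to be tested. FOXO1, FOXO3, GATA6 and KLF9 were lower in the knockdown, whereas HAND2, GATA2, NR2F2 and STAT3 did not pass the test in either direction. FOXO1, at 55.9% of the control level, and KLF9, at 64.2%, were also past the fold change of 1.5 that defined differentially expressed (DE) genes. IGFBP1 and LEFTY2 were absent, with 1 read between them in all libraries.

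Read against all genes, the count of lower genes was 4 of the 8 tested at an adjusted p under 0.05, where 25.0% of the 15155 tested genes were lower and 23.3% were higher. Past the fold change cutoff too, 2 of 8 were lower and 0 were higher, beside 6.43% and 5.30% of all tested genes. These 4 lower genes were also those whose groups did not overlap, a pattern found in the lower direction for 29.0% of tested genes. The members were chosen with earlier results of these data known. With so many genes changed in these cells, and so few members, no conclusion is drawn from these counts. The median log2 fold change of the 8 was -0.19, against 0.0032 for all tested genes.

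The guide strand of the siRNA is shown because such strands can pair with RNAs other than their target through bases 2 to 8, the seed. These bases are in capitals, and in the site from NR2F2 the capitals mark the only match to the seed, of 8 bases, found in the 3′ UTRs of the 10 genes.
siRNA LINC01133a guide strand: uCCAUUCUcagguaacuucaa
NR2F2 3′ UTR: agacaattagcAGAATGGAgaaagtaagtc
The NR2F2 stretch lies at chr15:96337958-96337987 on the plus strand of GRCh38, in the 3′ UTR of the MANE Select transcript of GENCODE v44. The 3′ UTRs of FOXO1, FOXO3, GATA6 and KLF9, the genes that were lower in the knockdown, held no 7-base match AGAATGG. Among 12447 tested genes with an annotated 3′ UTR, 17.1% held at least 1 match of 7 bases and 5.76% held a match of 8 bases. The gene with the match, NR2F2, was at 104% of its control level.

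The libraries held 27742562 to 37551194 counts on genes, and the values below are counts scaled to a common depth of 32364034 (normalized read counts). LINC01133 had normalized counts of 813, 818 and 837 in the control and 130, 131 and 138 in the knockdown libraries. Its level in knockdown cells was 16.2% of control, with a log2 fold change of -2.63 (SE 0.070, Benjamini-Hochberg adjusted p = 3.5e-11 of the edgeR quasi-likelihood test). The cells expressed both epithelial and stromal genes. Of 9 epithelial markers, 8 were tested, and 5 were lower at an adjusted p under 0.05, where 25.0% of all tested genes were lower. KRT8, KRT18 and KRT19 were high in control cells, at means of 104550, 57532 and 39956. EPCAM was at a mean of 13.6 there, and KRT5 was at 0 in every library. The summed level of that list was 200640 to 211650 in the control and 128460 to 134360 in the knockdown libraries. Of 10 stromal markers, 8 were lower and 1, MME (0.82), was higher at an adjusted p under 0.05, beside 25.0% and 23.3% of all tested genes. The 8 changes were uneven, from -1.52 for PDGFRA, -1.16 for CDH2 and -0.97 for COL6A3 to -0.12 for LUM. COL1A1, at a mean of 87700 in control cells, did not pass the test (-0.096, edgeR adjusted p = 0.13). The summed level of the 10 went from 176410 to 196050 in the control to 149210 to 157400 in the knockdown libraries. Of 6 immune markers 3 were tested, and CD3E was at 0. CD14 was lower, from 1707 ± 102 to 863 ± 32.8, NCAM1 was higher, from 662 ± 11.5 to 822 ± 44.3, and PTPRC did not pass the test. Of 4 endothelial markers 2 were tested, 0 were lower, and CDH5 was higher, from 63.4 ± 4.56 to 174 ± 17.8. The epithelial, stromal and immune sums were lower in the knockdown libraries, as the 4 lower genes were. The endothelial sum was higher, at 85.0 to 96.6 in the control and 181 to 221 in the knockdown libraries, and CDH5 was the largest part of it. VWF did not pass the test (0.29, edgeR adjusted p = 0.33). PECAM1 and TEK, with too few reads to be tested, had lower means in the knockdown. The part of these marker changes in those of the 4 lower genes was not tested. All of these are markers read in the 12Z line, not in a tissue of several cell types. In RNA from whole wells of this line, fewer cells that express a gene and less RNA per cell cannot be told apart.

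**Figure D1:**
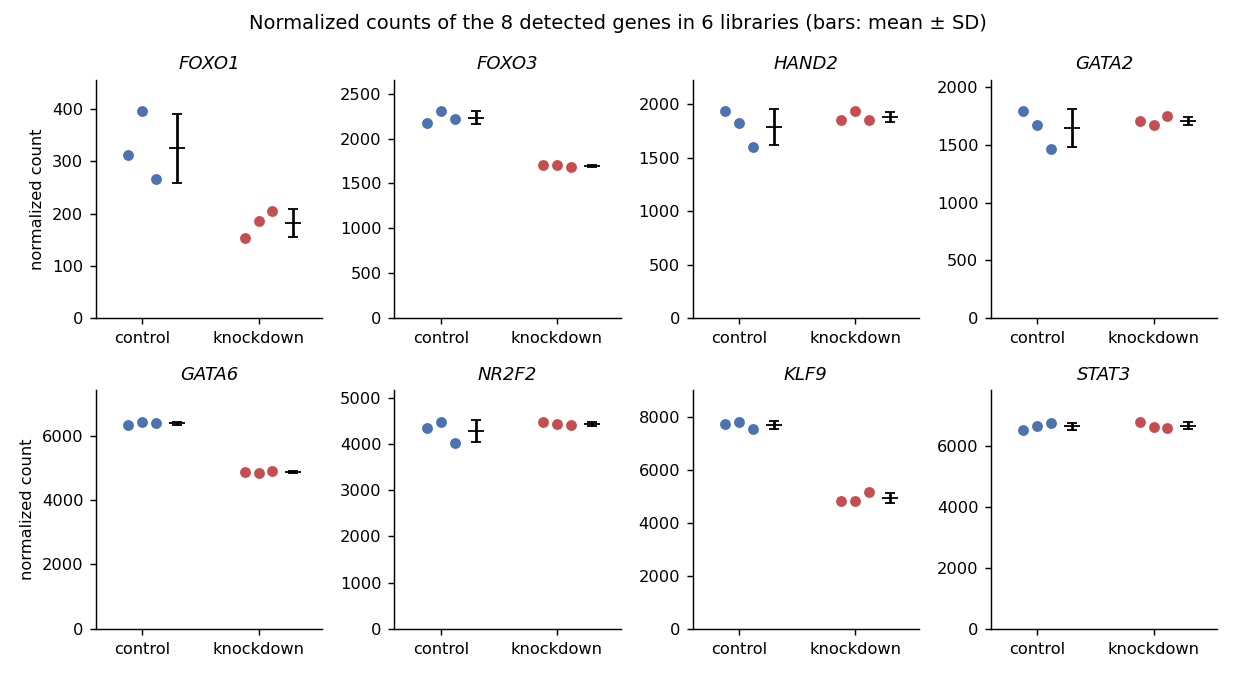
Normalized read counts (linear axes from 0, each gene with its own scale) of the 8 tested genes in the 3 control and 3 knockdown libraries, 1 point per library, with bars for mean ± SD. The control and knockdown points of FOXO1, FOXO3, GATA6 and KLF9 do not overlap, and those of HAND2, GATA2, NR2F2 and STAT3 do.

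Beginning with the forkhead factors, FOXO1 (chromosome 13, 40555667 to 40666641, minus strand, GRCh38) had normalized counts of 311, 397 and 266 with control siRNA and 153, 186 and 205 after knockdown. Every knockdown library was below every control library, although both groups were spread widely for a gene of this level. The means were 325 ± 66.1 and 181 ± 26.7 (SD, n = 3 each) and the log2 fold change was -0.85 (SE 0.14, 95% interval -1.16 to -0.54, edgeR adjusted p = 3.1e-04). The interval reached past the fold change cutoff on its weak side. When single libraries were left out, the change lay between -0.97 (without control library 3) and -0.69 (without control library 2). FOXO1 was called DE each time.

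FOXO3 (chromosome 6, 108559835 to 108684774) encodes a related forkhead factor that binds the same DNA motif and, like FOXO1, is kept out of the nucleus by AKT. Its normalized counts were 2173, 2308 and 2215 in control and 1702, 1705 and 1681 in knockdown cells. The knockdown libraries were within a narrow range and all below the control libraries. FOXO3 was at 76.0% of control, with a log2 fold change of -0.40 (SE 0.040, 95% interval -0.48 to -0.31, edgeR adjusted p = 3.4e-06), and thus under the fold change cutoff. FOXO3B, a near-copy of FOXO3 elsewhere in the genome, had 260 ± 6.70 against 225 ± 21.7 normalized counts (log2 fold change -0.21, edgeR adjusted p = 0.076). Reads that fit both places equally well had been dropped from the counts, so the levels of FOXO3 and FOXO3B are uncertain to that extent.

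To ask whether FOXO1 fell further than FOXO3, their counts were divided within each library, which needs no scaling between libraries. The ratio of FOXO1 to FOXO3 was 0.143, 0.172 and 0.120 in control and 0.0896, 0.109 and 0.122 in the knockdown libraries. The groups overlapped at a single pair of libraries, control 3 and knockdown 3. The means were 0.145 ± 0.0258 and 0.107 ± 0.0164, a difference of -0.44 in log2 ratio (exact two-sided permutation test over 6 libraries, p = 0.2, adjusted over 2 ratios p = 0.2). With 3 libraries per group this test cannot give a p below 0.1, so a larger fall of FOXO1 than of FOXO3 was not shown.

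The zinc finger factor KLF9, a partner of the progesterone receptor that is induced by steroid hormones, maps to chromosome 9, 70384604 to 70414657. Its normalized counts were 7735, 7831 and 7537 in control and 4844, 4843 and 5154 in knockdown cells. The groups were far apart for the spread within them. The means were 7701 ± 150 and 4947 ± 180, with a log2 fold change of -0.64 (SE 0.038, 95% interval -0.72 to -0.56, edgeR adjusted p = 3.2e-08). KLF9 thus had a smaller change than FOXO1 with a smaller error. Because its change was close to the cutoff, its call rested on the scaling: with libraries scaled by their totals alone the log2 fold change was -0.58 and KLF9 was no longer DE, with an edgeR adjusted p of 8.4e-08.

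GATA6 and GATA2 are zinc finger factors of 1 family. GATA2 is expressed in the normal endometrium and acts with the progesterone receptor, and GATA6 is known for high expression in endometriotic cells. GATA6 (chromosome 18, 22169589 to 22202528) had normalized counts of 6337, 6434 and 6376 in control and 4855, 4828 and 4908 in knockdown cells. No library of either group came near the other group. The level in knockdown cells was 76.2% of control, with a log2 fold change of -0.39 (SE 0.034, 95% interval -0.47 to -0.32, edgeR adjusted p = 8.9e-07), below the fold change cutoff. GATA2 (chromosome 3, 128479427 to 128493201) had 1795, 1676 and 1464 in control and 1704, 1675 and 1746 in knockdown cells. The knockdown values lay inside the range of the control values, and the log2 fold change was 0.053 (95% interval -0.080 to 0.19, edgeR adjusted p = 0.50).

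The count of GATA2 relative to that of GATA6 was 0.283, 0.261 and 0.230 in the control and 0.351, 0.347 and 0.356 in the knockdown libraries. All 3 knockdown ratios were above all 3 control ratios. The means were 0.258 ± 0.0269 and 0.351 ± 0.0044, a difference of 0.45 in log2 ratio (exact two-sided permutation test over 6 libraries, p = 0.1, the smallest this design allows, adjusted over 2 ratios p = 0.2). The separation was complete, but a threshold of 0.05 was out of reach with these libraries.

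**Figure D2:**
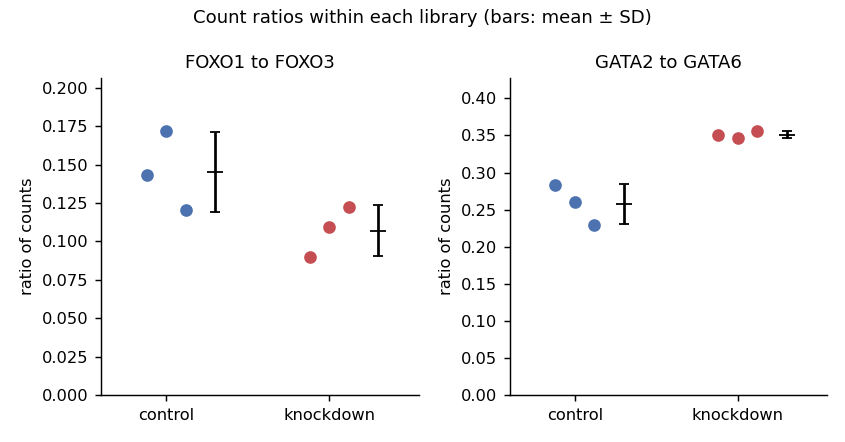
Ratio of the FOXO1 count to the FOXO3 count (left) and of the GATA2 count to the GATA6 count (right) within each library, with points for libraries and bars for mean ± SD. The FOXO1 to FOXO3 ratios of the groups overlap (0.120 in control 3, 0.122 in knockdown 3), and the GATA2 to GATA6 ratios of the groups do not.

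HAND2 (chromosome 4, 173524969 to 173530229), a basic helix-loop-helix factor induced by progesterone in the stroma, had normalized counts of 1935, 1825 and 1605 in control and 1859, 1940 and 1852 in knockdown cells. The control libraries were spread over a wider range than the knockdown libraries, which fell mostly inside it. The log2 fold change of HAND2 was 0.074 (95% interval -0.053 to 0.20, edgeR adjusted p = 0.32). Its neighbor on the opposite strand, the long non-coding RNA HAND2-AS1, had 1331, 1310 and 1239 in control and 887, 941 and 1063 in knockdown cells. These groups did not overlap, and the log2 fold change of HAND2-AS1 was -0.43 (SE 0.062, edgeR adjusted p = 8.1e-05), below the cutoff for DE. The difference between the changes of HAND2 and HAND2-AS1 was not tested. Of the 5 tested antisense RNAs and gene copies of the list, HAND2-AS1 was the only one with an adjusted p under 0.05.

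NR2F2 (chromosome 15, 96325938 to 96340263) encodes COUP-TFII, a nuclear receptor of the stroma that acts below hedgehog signaling. Its normalized counts were 4339, 4486 and 4024 in control and 4485, 4424 and 4409 in knockdown cells, overlapping ranges with a log2 fold change of 0.052 (95% interval -0.040 to 0.14, edgeR adjusted p = 0.34). STAT3 (chromosome 17, 42313324 to 42388540), which carries the signal of LIF and IL-11 receptors, had 6540, 6654 and 6779 in control and 6811, 6616 and 6610 in knockdown cells. These overlapped as well, with a log2 fold change of 0.0048 (95% interval -0.071 to 0.081, edgeR adjusted p = 0.92). The intervals of HAND2, GATA2, NR2F2 and STAT3 all ended short of the fold change of 1.5 in both directions, so a change of that size was outside the range these libraries allow, under the scaling used. Smaller changes remained within it.

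IGFBP1 and LEFTY2 were not detected above a single read. IGFBP1 (chromosome 7, 45888360 to 45893660), a secreted binding protein of insulin-like growth factors, had 1 read in knockdown library 1 and 0 in the other 5 libraries. LEFTY2 (chromosome 1, 225936598 to 225941383), an inhibitor of nodal signaling, had 0 in all 6. A count of 0 allows up to 3 reads in a library, a level of 0.0799 to 0.108 CPM (reads of a gene scaled to the depth of its library), for counting error only. LEFTY2 has a near-identical neighbor, LEFTY1, and reads common to both were dropped, which could lower either count. LEFTY1 itself had 3 reads in all. PRL, the hormone that marks decidual cells most widely, was at 0 in every library.

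**Figure D3:**
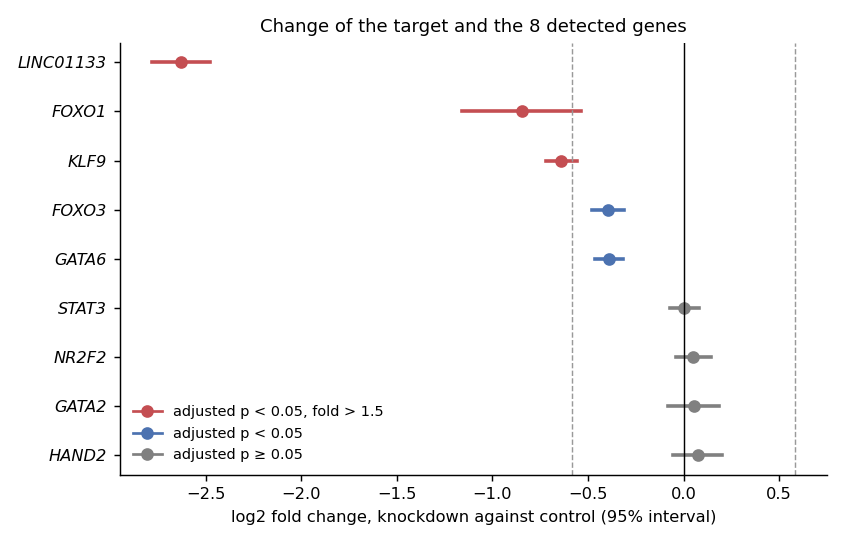
Log2 fold change of LINC01133 (-2.63) and the 8 tested genes in knockdown against control cells, with 95% intervals from the edgeR fit and the fold change cutoffs as dashed lines. FOXO1 (-0.85) and KLF9 (-0.64) lie past the lower cutoff, FOXO3 (-0.40) and GATA6 (-0.39) lie between it and 0, and the intervals of the other 4 include 0.

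Per length, GATA6 was the most highly expressed of the genes in control cells, at 51.9 ± 0.40 RPKM (reads scaled to depth and to the exon length of GENCODE v44). KLF9 followed with 45.8 ± 0.89 RPKM, then NR2F2 with 20.4 ± 1.13, STAT3 with 18.4 ± 0.33 and HAND2 with 15.3 ± 1.44. GATA2 with 10.3 ± 1.05 and FOXO3 with 8.99 ± 0.28 were neighbors whose control ranges overlapped, the only such pair in the order. FOXO1 was the lowest of the expressed genes, with 1.68 ± 0.34 RPKM in control and 0.941 ± 0.14 in knockdown cells. The order was the same in the knockdown, where GATA6 was at 39.6 ± 0.33 and KLF9 at 29.4 ± 1.07 RPKM. The DE members therefore came from near the top and the bottom of the order, and the low level of FOXO1 went with the largest error.

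Over the 6 libraries, the genes whose centered log2 CPM profile was nearest to that of FOXO1 were ATG9B, an autophagy protein, with a Euclidean distance of 0.039, PGAM4, a phosphoglycerate mutase retrogene, with 0.18, and the unnamed gene ENSG00000285517 with 0.23. The median distance over genes was 1.18. All 3 were lower in the knockdown, ATG9B with a log2 fold change of -0.92, but ATG9B (29.8 ± 6.78 in control) and PGAM4 had few reads. The profiles nearest to KLF9 were those of DAPK1, a death-associated kinase, with a distance of 0.022, of the J-domain protein DNAJC16 with 0.040, and of PANK3, a kinase of coenzyme A synthesis, with 0.054 (median 0.856). Among the members, KLF9 was the nearest to FOXO1, at rank 278 of all genes. The points of these distances are the same 6 libraries and the same contrast.

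The pathways around the 10 genes were described by 10 lists of 182 genes, 144 of them tested, of which 20 were lower and 5 were higher past both cutoffs, where 6.43% of all tested genes were lower and 5.30% higher. At an adjusted p under 0.05 alone, 54 were lower and 24 were higher, where the shares of all tested genes were 25.0% and 23.3%. The counts of each list below are to be read beside the same shares, and with 5 to 24 tested genes a list they move in large steps. The lists, too, were chosen with earlier results of these data known.

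**Figure D4:**
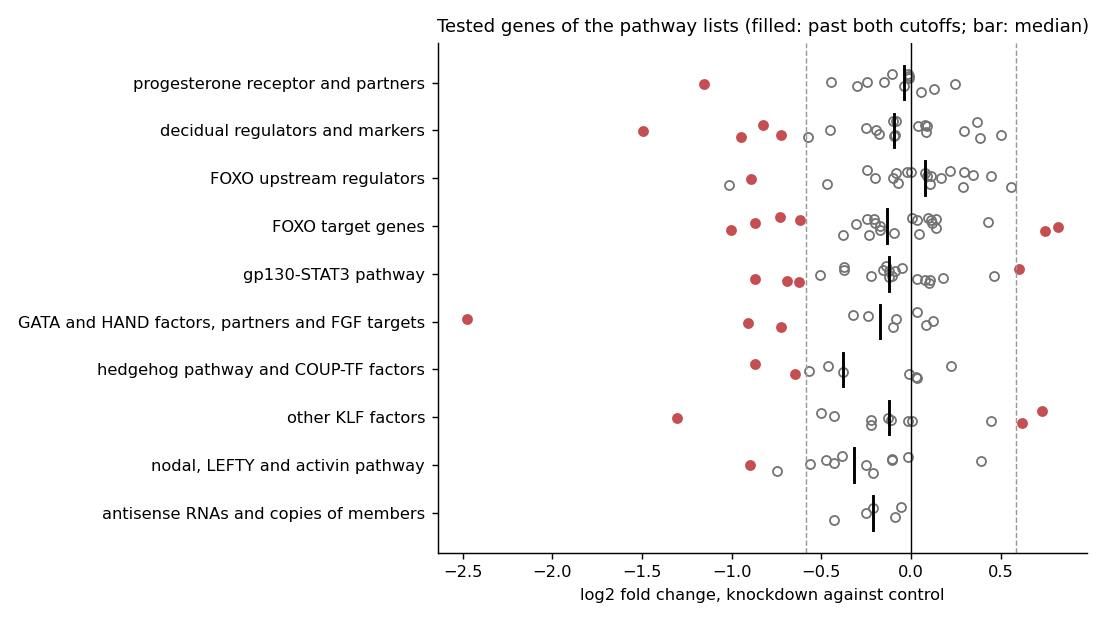
Log2 fold change (knockdown against control) of each tested gene of the pathway lists, 1 point per gene, filled where past both cutoffs (dashed lines), with a bar at the median of the list. The medians lie between -0.38 for the hedgehog and COUP-TF list and 0.079 for the FOXO upstream regulators.

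Among the targets of FOXO factors, 24 of 30 matched genes were tested, 4 were lower and 2 higher past both cutoffs (9 and 4 at an adjusted p under 0.05), and the median log2 fold change was -0.14. TNFSF10, the death ligand TRAIL, had 757, 787 and 583 normalized counts in control and 282, 357 and 431 in knockdown cells. Its groups did not overlap, and its log2 fold change was -1.01 (SE 0.13, edgeR adjusted p = 3.9e-05). SESN1, a stress protein that restrains mTORC1, fell from 486 ± 27.0 to 268 ± 36.7 (-0.87, edgeR adjusted p = 5.7e-06). The other lower ones, picked out after their values were seen, were FBXO32, a ubiquitin ligase of muscle wasting (-0.73), and DEPP1, a regulator of autophagy (-0.62). Those that rose were BBC3, which encodes the death protein PUMA, from 52.1 ± 9.07 to 93.5 ± 13.5 (0.82, edgeR adjusted p = 0.0014), and CITED2, a co-regulator that binds CBP and p300, from 1456 ± 160 to 2437 ± 166 (0.74, edgeR adjusted p = 1.8e-06). SESN1 and BBC3 are also targets of p53. CCNG2 (-0.25, edgeR adjusted p = 0.0019) and BCL6 (-0.20, edgeR adjusted p = 0.0088) were lower under the fold change cutoff, while CDKN1B, a cell cycle inhibitor, had a log2 fold change of 0.044 (edgeR adjusted p = 0.35) and IRS2 one of -0.20 (edgeR adjusted p = 0.059). BCL6 no longer passed the test without knockdown library 1 (-0.16, edgeR adjusted p = 0.064) or with libraries scaled by their totals alone (-0.14, edgeR adjusted p = 0.059). Changed targets were thus found in both directions, 9 lower and 4 higher, and the part of FOXO1 and FOXO3 in these changes was not tested.

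The promoters of the target genes were searched on both strands for GTAAACA, the core that FOXO factors bind, from 250 bases before to 50 after the start (RefSeq, GRCh38.p14). It was found in 5 of the 24 target genes with a promoter sequence, and 3.42% of 35116 promoters hold it. A gene was counted if any of its promoters held the core, whereas the share is over single promoters, so they cannot be compared directly. The core is shown in capitals for a target that was DE and for 1 of the lower targets that were not, both chosen after their values were seen.
DEPP1 promoter: tgccctgcagcGTAAACAttccccagcctc
TXNIP promoter: tcgggctcctgGTAAACAaggaccgggcag
The DEPP1 stretch is chr10:44978971-44979000 and the TXNIP stretch chr1:145996685-145996714, both written along the minus strand. DEPP1 went from 267 ± 34.7 to 174 ± 2.89 normalized counts (edgeR adjusted p = 3.4e-04), and TXNIP, an inhibitor of thioredoxin, had a log2 fold change of -0.24 (edgeR adjusted p = 0.0038). BCL2L11 (0.14, edgeR adjusted p = 0.062), PIK3IP1 (-0.17, edgeR adjusted p = 0.28) and MXI1 (-0.18, edgeR adjusted p = 0.0073) held the core as well. So genes with the core were found among those that passed the test and those that did not. Of the 10 members, 8 had a promoter sequence and 0 held the core. A further motif, the insulin response core CAAAACA, was also searched, and 4.92% of promoters hold it. Among the targets it was found in PRDX3 (-0.31, edgeR adjusted p = 7.7e-06), IRS2 and KLHL24 (-0.098, edgeR adjusted p = 0.31).

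Upstream of the FOXO factors, 21 genes were tested, and 3 were lower and 6 higher at an adjusted p under 0.05, with 1 past the fold change cutoff. This was PIK3CA, the catalytic subunit of the kinase that activates AKT, with 2354, 2630 and 2363 normalized counts in control and 1280, 1334 and 1349 in knockdown cells. The groups were separate, with a log2 fold change of -0.89 (SE 0.050, edgeR adjusted p = 1.8e-08). AKT1, the kinase that phosphorylates FOXO1, moved the other way, from 3161 ± 141 to 4299 ± 93.4 (0.44, edgeR adjusted p = 1.7e-06). FOXO4 was at 0.079 (edgeR adjusted p = 0.28) and SGK1, another kinase of FOXO factors, at -0.10 (edgeR adjusted p = 0.11). These are RNA levels, and neither the phosphorylation nor the place of FOXO1 in the cell was measured in these libraries.

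Among the progesterone receptor and its partners, 1 of 13 tested genes was DE. The receptor gene PGR had only 23.3 ± 4.63 normalized counts in control and 21.1 ± 5.08 in knockdown cells (-0.15, edgeR adjusted p = 0.67). At this depth a moderate change of PGR could not be seen. FKBP5, a chaperone partner that is induced by progestins and glucocorticoids, was at -0.037 (edgeR adjusted p = 0.58). The DE gene was NCOA3, a coactivator of nuclear receptors, with 3808, 4189 and 3813 in control and 1750, 1702 and 1846 in knockdown cells. Its log2 fold change was -1.16 (SE 0.048, edgeR adjusted p = 1.5e-09), larger than that of any of the 10 members.

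Of 31 other regulators and markers of the decidua, 21 were tested and 4 were DE, all lower. WNT4, a secreted factor that acts below BMP2, had 2226, 1958 and 1970 in control and 740, 658 and 793 in knockdown cells. With a log2 fold change of -1.49 (SE 0.068, edgeR adjusted p = 2.9e-09), WNT4 was the most changed gene of this list. BMP2, which drives WNT4 in the stroma, fell from 212 ± 33.1 to 119 ± 3.28 (-0.83, edgeR adjusted p = 1.1e-04), and CRISPLD2, a secreted target of the progesterone receptor, from 719 ± 47.1 to 372 ± 30.8 (-0.95, edgeR adjusted p = 3.7e-07). CEBPB, a transcription factor induced by cAMP, fell from 1583 ± 285 to 959 ± 29.3 (-0.73, edgeR adjusted p = 4.0e-05), but at -0.58 it was under the cutoff without control library 1. At an adjusted p under 0.05, 8 genes of the list were lower and 4 were higher, and the median was -0.096.

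Of the receptors that signal to STAT3, LIFR and IL6ST were lower past both cutoffs and IL11RA was higher, while STAT3 did not pass the test. OSMR (-0.37, edgeR adjusted p = 2.4e-05) and IL6R (0.031, edgeR adjusted p = 0.89), named after their values were seen, were not DE. LIFR, the receptor of LIF, had 7651, 8760 and 7638 in control and 4271, 4214 and 4695 in knockdown cells, with a log2 fold change of -0.87 (SE 0.057, edgeR adjusted p = 6.9e-08). IL6ST, which encodes the common subunit gp130, fell from 31048 ± 1940 to 20103 ± 255 (-0.63, edgeR adjusted p = 1.1e-07), a change that was under the cutoff without control library 2 (-0.58) and with libraries scaled by their totals alone (-0.56). LIFR and IL6ST were separated between the groups in all libraries. BCL3 (-0.69, edgeR adjusted p = 2.1e-07), a target of STAT3, was DE, and SOCS3, its feedback inhibitor, was lower under the cutoff, from 1628 ± 15.4 to 1142 ± 44.8 (-0.51, edgeR adjusted p = 8.0e-07). IL11RA rose from a low level, 74.3 ± 5.34 to 114 ± 29.8 (0.60, edgeR adjusted p = 0.013), and it was under the cutoff without control library 2 (0.57), control library 3 (0.57) or knockdown library 3 (0.41), as well as with unstranded counts (0.58). The ligand LIF had a log2 fold change of -0.091 (edgeR adjusted p = 0.31). In all, 9 of 21 tested genes of this pathway were lower and 4 higher at an adjusted p under 0.05.

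Around the GATA and HAND factors, 10 of 14 genes were tested, 5 were lower and 0 higher at an adjusted p under 0.05, and 3 were DE. GATA5, another member of the GATA family, had 57.8, 52.9 and 58.0 normalized counts in control and 11.0, 5.83 and 13.6 in knockdown cells. The log2 fold change was -2.47 (SE 0.25, edgeR adjusted p = 4.0e-06), at a low level. ZFPM1, the GATA cofactor FOG1, fell from 146 ± 16.2 to 76.6 ± 14.7 (-0.91, edgeR adjusted p = 2.4e-04), and FGF18, a growth factor that HAND2 is known to restrain, had a log2 fold change of -0.73 (edgeR adjusted p = 1.5e-05). FGF2, another growth factor under HAND2, was at -0.10 (edgeR adjusted p = 0.18). GATA3 had 1 read in all.

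The list of the hedgehog pathway, which acts above NR2F2, also held the COUP-TF factors NR2F1 and NR2F6. At an adjusted p under 0.05, 5 of its 9 tested genes were lower, NR2F1 among them, and 1 was higher. The higher gene was NR2F6 (0.22, edgeR adjusted p = 0.0049), not a gene of the pathway itself. The median of -0.38 was the lowest of these pathway lists. The ligand genes IHH, SHH and DHH had too few reads to be tested. PTCH1, the hedgehog receptor and a target of the pathway, fell from 265 ± 33.2 to 171 ± 28.0 (-0.65, edgeR adjusted p = 8.6e-04), a change under the cutoff without control library 2 (-0.57), knockdown library 1 (-0.58) or knockdown library 2 (-0.57), and with libraries scaled by their totals alone (-0.58). GLI1, the transcription factor of the pathway, was DE at a low level (-0.87, edgeR adjusted p = 0.0028). NR2F1, the closest relative of NR2F2, had 5420, 5425 and 4966 in control and 3428, 3588 and 3651 in knockdown cells. These did not overlap, and the log2 fold change of NR2F1 was -0.57 (SE 0.044, edgeR adjusted p = 3.2e-07), just under the cutoff, beside 0.052 for NR2F2. The difference between both genes was not tested.

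Of the other KLF factors, 12 of 17 were tested, with 1 lower and 2 higher past both cutoffs, and 5 lower and 2 higher at an adjusted p under 0.05. KLF2 had 285, 284 and 273 in control and 108, 111 and 124 in knockdown cells, with a log2 fold change of -1.30 (SE 0.097, edgeR adjusted p = 2.1e-07). Thus KLF2 and KLF9 were lower, while KLF4 rose from 59.9 ± 9.48 to 98.3 ± 13.7 (0.73, edgeR adjusted p = 0.0022) and KLF12 from 637 ± 55.8 to 977 ± 36.7 (0.62, edgeR adjusted p = 4.3e-06). KLF12, known as a repressor of decidual genes, was under the cutoff without control library 3 (0.57). KLF13, which is closely related to KLF9, had 27.3 and 27.5 normalized counts on average (0.0026, edgeR adjusted p = 0.99).

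The nodal, LEFTY and activin list had 12 of 19 genes tested and 7 with fewer than 10 reads in all, NODAL with 1 read among them. INHBB, the beta B subunit of activin and inhibin, was the DE gene, falling from 275 ± 14.1 to 148 ± 11.8 (-0.90, edgeR adjusted p = 6.2e-06). At an adjusted p under 0.05, 5 genes were lower and 1 was higher, with a median of -0.32.

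Several genes of these lists, unlike the 4 lower members, held the seed match in their 3′ UTR. Those lower past both cutoffs were NCOA3 with 3 matches, IL6ST with 2, and PIK3CA, FBXO32, LIFR, SESN1, INHBB and CEBPB with 1 each. Lower under the fold change cutoff, CCNG2, WNT5A, KLF3, KLF5, SIRT1, SMAD2, OSMR and MAOA held 1 each and TCF4 held 2. Genes higher at an adjusted p under 0.05 held it too, IRS1 with 3 matches, DIO2 with 2, and GADD45A and PTPN11 with 1 each. Over all lists, 8 of 20 genes called lower, 0 of 4 called higher and 30 of 114 not called held a 7-base match. The share over all tested genes with an annotated 3′ UTR was 17.1%. The part of the siRNA seed in the changes of these genes was not tested.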

How the data were processed

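PolyA RNA was sequenced in paired ends from 3 control and 3 knockdown wells of 12Z cells. Per the labels and the methods of the study, the authors aligned the reads with STAR 2.7.6a to GRCh38.p13 with GENCODE v36, dropped reads that mapped to several places, used Samtools 1.10, and deposited raw counts per gene. The counts of the strand opposite to read 1 were used, since they held 93.9% to 94.1% of the stranded counts. Which strand setting the authors used is not given in the sources used here.

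Gene symbols, positions and exon lengths came from GENCODE v44 by stable identifier (60419 of 60660 with a symbol). SOD2 of the FOXO target list could not be matched. Genes were kept by filterByExpr with a minimum count of 10, scaled by TMM, and fitted in edgeR 4.0.16 under R 4.3.3 with a single term for group. Its quasi-likelihood p-values were adjusted over the 15155 tested genes by Benjamini and Hochberg's method. The cutoffs for DE, a fold change over 1.5 and an adjusted p under 0.05, are those of the study. DESeq2 1.42.0 was an alternative. The test was checked on simulated counts.

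The replicates are called biological by the study, but nothing says whether wells shared a passage or day, so p-values measure the spread between these samples. Libraries of a group differed by more than sampling noise, and 0 were counted as duplicates. Control library 2 stood furthest from its group. The chi-squared statistic per degree of freedom was 11.9 against control 1 and 13.1 against control 3. It was 3.75 between controls 1 and 3, and 2.20 to 3.50 between knockdown libraries. The members and lists were chosen with earlier results of these data known. Genes named were all members, the targeted RNA, up to 4 DE genes per list with the largest changes, a set of genes fixed by role, and the 3 nearest profiles to FOXO1 and KLF9. Alternatives for the genes of the lists, and for FOXO3 and FOXO3B summed, were added after the data were seen.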

Additional observations from a re-analysis of the deposited data

Results flagged for a closer look

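On the strand opposite to that of the gene, which no comparison used, GATA2 had more reads in the knockdown than in the control libraries. The normalized counts there were 27.5, 29.3 and 25.9 in control and 38.1, 31.1 and 38.6 in knockdown cells, with means of 27.6 ± 1.69 and 35.9 ± 4.21 (SD, n = 3 each). It was flagged because all knockdown values in this unused column were above all control values. The difference was not tested, and GATA2 has a separate antisense gene, GATA2-AS1, whose own log2 fold change was -0.055 (edgeR adjusted p = 0.59).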

How the results depend on the processing

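With an adjusted p under 0.05 as the only cutoff, 7315 genes were called in place of 1778, and 4 members in place of 2. With libraries scaled by their totals alone, 1 member was called, as KLF9 fell under the fold change cutoff. That scaling moved the median of all genes by 0.062 on the log2 scale, and with it NR2F2 passed the test (0.11, edgeR adjusted p = 0.030). DESeq2 called 1462 genes.

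Leaving out single libraries gave 1641 to 1815 genes called, 2 members called each time, 23 to 25 genes of the lists, -2.65 to -2.61 for LINC01133, -0.56 to -0.31 for the log2 FOXO1 to FOXO3 ratio and 0.37 to 0.52 for the GATA2 to GATA6 ratio. Of 597 values of 46 single genes under alternatives, 567 kept their direction and their side of the cutoffs, 15 became weaker and 7 stronger. The other 8, from 5 genes, changed sign with the test passed on neither side. Without single libraries these genes ranged from -0.023 to 0.12 (GATA2), -0.0080 to 0.020 (STAT3), -0.093 to 0.016 (FKBP5), -0.23 to 0.19 (KLF13) and -0.29 to 0.064 (PGR), and FKBP5 was at 0.025 with libraries scaled by their totals alone.

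The replicate numbers did not pair the libraries, with correlations of -0.015, 0.0049 and 0.057 between libraries of the same number, and not every library was closest to its own number. With the replicate block, 1747 genes and 2 members were called, LINC01133 was at -2.63, and the exact permutation p of the ratios was 0.5 and 0.25, where 0.25 is the smallest possible.

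The limits are 3 libraries per group, 1 siRNA, 1 line and 1 time. Low counts limit what can be said of PGR and GATA5, and the spread between libraries limits what can be said of FOXO1.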
